A study of Mus musculus with 2 samples.

Results

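Neural tube progenitors are the dividing neuroepithelial cells of the embryonic spinal cord and brain, and 65 of the 8972 cells that passed quality limits met the marker rule for them. Cells were chosen by their own counts of marker genes. A cell was kept when it held unique molecular identifiers (UMIs, each standing for 1 captured mRNA molecule) of at least 2 different genes of the 6 inclusion genes Sox1, Sox2, Sox3, Pax6, Msx3 and Hes5. It also had to hold 0 UMIs of the 6 exclusion genes Epcam, Foxa1, Sox10, Elavl3, Elavl4 and Stmn2, at least 400 detected genes and at most 10% of UMIs from mitochondrial genes. The cells come from 2 Drop-seq libraries, a method that captures single cells with barcoded beads in droplets. Each was made from the posterior second heart field (SHF) and heart tube of about 80 pooled CD1 embryos, an outbred mouse strain, of WT genotype and age E10.0. There was 1 group and no treated or mutant animal, so each comparison is between kinds of cell within the same libraries, and n = 2 libraries throughout. The dissection was aimed at heart tissue, and the labels do not mention neural tube. The passing cells numbered 4038 in replicate 1 and 4934 in replicate 2, with medians of 1364 and 1505 UMIs.

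The neural tube is a tube of progenitors around a central canal. BMP and Wnt signals from the roof and Sonic hedgehog from the floor divide it into domains that express different homeodomain and basic helix-loop-helix factors, while Hox genes record position along the head-to-tail axis. Notch signalling, through effectors such as Hes5, keeps progenitors dividing, and cells that raise proneural factors such as Neurog2 leave the cycle and become neurons.

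The rule found 30 cells in replicate 1 and 35 in replicate 2. They made up 0.743% of the passing cells of replicate 1 (exact Clopper-Pearson 95% interval 0.502% to 1.06%) and 0.709% of those of replicate 2 (0.495% to 0.985%). The 2 shares differ by less than their counting error. Among the inclusion genes, the Notch effector Hes5 was detected in 51 of the 65 cells (109 UMIs), the stem cell factor Sox2 in 38 (59 UMIs), the dorsal factor Msx3 in 34 (74 UMIs) and the eye and spinal cord factor Pax6 in 29 (60 UMIs). The Sox2 relatives Sox1 and Sox3 were seen in 7 and 6 cells. These genes chose the cells, so their values are a description and were not tested. The commonest combinations were Msx3 with Hes5 (11 cells), Sox2 with Hes5 (10 cells) and all 3 together (6 cells). Just inside the rule lay 37 cells with exactly 2 inclusion genes. Just outside it lay 187 cells with 1 inclusion gene and no exclusion UMI, and 32 cells with at least 2 inclusion genes but some UMI of an exclusion gene, most often Elavl4 (19 cells) or Elavl3 (12 cells). Because Msx3 marks the dorsal tube, the rule itself favours dorsal cells. Foxa1 is also known from the floor plate, so the rule works against floor plate cells in particular.

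Many barcodes of replicate 1 were near copies of one another. There, 1672 of 4038 passing barcodes (41.4%) had another passing barcode that differed at 1 base, 1632 of them at the last base, against 419 of 4934 (8.49%) in replicate 2. Whether such pairs are 1 bead was not tested. Of the 30 members in replicate 1, 6 lay in 2 groups of this kind, of 4 and 2 barcodes, and none of the 35 in replicate 2 did. With neighbouring barcodes merged, 27 and 35 cells met the rule, 0.979% and 0.742% of cells. They held 35 and 37 barcodes, so merging also brought in barcodes that were not members. The libraries shared 82 barcodes, of which 1 passed and none was a member. Members were deeper than most cells, with medians of 3496.5 and 3249 UMIs (range 483 to 18098 in replicate 1 and 666 to 15937 in replicate 2), against 1263 and 1433 UMIs in the remaining cells. Depth thus moves with the rule, and the results with each cell thinned to 1000 UMIs are given beside the counts. Levels are given as CPM, the UMIs of a gene scaled to all UMIs of the summed cells of a library. The summed members held 144489 and 144944 UMIs, so a gene with 0 UMIs in a library could still have stood at up to 20.8 and 20.7 CPM, the level of 3 counts. Intervals and this floor cover counting error only.

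Fabp7, the marker of the label that took no part in the rule, was high in these cells. This fatty acid binding protein gene of neural progenitors and radial glia (chromosome 10, 57784881 to 57788450, plus strand, GENCODE M21 on GRCm38, as for all genes here) had 27 and 42 UMIs in the progenitors of replicates 1 and 2 (187 and 290 CPM), against 96 and 154 UMIs (9.75 and 13.0 CPM) in the 8267 cells outside all gated classes. The libraries of the 2 groups did not overlap. Its log2 fold change was 4.29 ± 0.33 (SE; adjusted p = 5.82e-14, edgeR quasi-likelihood test with Benjamini-Hochberg adjustment). It was detected in 24 of the 65 progenitors (36.9%) and in 3 of 217 cardiomyocytes (1.38%), which should lack it, at median depths of 3252 and 2713 UMIs. The intermediate filament gene Nes (nestin) had 92 and 66 UMIs in progenitors (637 and 455 CPM), against 152 and 92.2 CPM in the other cells, a log2 fold change of 2.08 ± 0.18.

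Across 7965 genes tested between progenitors and those other cells, 215 were higher (2.7%) and 338 lower (4.24%) at an adjusted p under 0.05, 6.94% in all, and 1425 (17.9%) had an unadjusted p under 0.05. With DESeq2 the split was 197 higher and 160 lower. The split was also sensitive to the genes and classes in the fit, with 19.4% of the calls higher when no filter on low counts was used and 26.4% when only progenitors and other cells were fitted, against 38.9% in the fit reported. With each cell thinned to 1000 UMIs, only 2130 genes were tested. Of these, 27 were higher and 41 lower, and 63 of these 68 were among the 553 calls. Without the library as a block, 73 were higher and 146 lower. With neighbouring barcodes merged, 525 genes were called, of which 509 were among the 553.

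The 12 named genes with the largest differences above the other cells included dorsal patterning factors and POU and Zic factors of the neural tube. Wnt1, a roof plate signal, had 4 and 13 UMIs in progenitors, against 2 and 3 in all other cells (0.203 and 0.254 CPM). Its log2 fold change of 7.59 ± 1.01 was no longer called by DESeq2 (adjusted p = 0.498). Olig3, a factor of the most dorsal progenitors (chromosome 10, 19356533 to 19358604, plus strand), had 14 and 24 UMIs (96.9 and 166 CPM), against 11 and 13 UMIs (1.12 and 1.10 CPM), a log2 fold change of 6.72 ± 0.61 (adjusted p = 1.36e-11, edgeR). The 38 UMIs of Olig3 came from 9 cells. Pou3f2, a POU factor of neural progenitors, was broader, in 32 of 65 cells, with 33 and 31 UMIs (228 and 214 CPM), against 4.67 and 5.0 CPM in other cells.

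The remaining genes of this group included the roof and dorsal zinc finger genes Zic1 and Zic5, the POU factor Pou3f3, its neighbouring long non-coding RNA Pantr1, the ciliogenic factor Rfx4 and the forkhead gene Foxb1. Pou3f3 (chromosome 1, 42695768 to 42703176, plus strand) stood at 96.9 and 89.7 CPM in progenitors, against 3.25 and 3.81 CPM in other cells. Pantr1 (42590782 to 42694842, minus strand) lies next to it on the other strand and stood at 145 and 138 CPM, against 5.58 and 7.88 CPM. The host transcript of a miR-124 gene, Mir124-2hg, stood at 138 and 89.7 CPM, against 4.06 and 4.49 CPM. Glra1, a glycine receptor subunit gene best known from spinal neurons, had 14 and 11 UMIs in 13 cells (96.9 and 75.9 CPM), against 1.02 and 0.762 CPM. Zic1 had 14 UMIs in each library (96.9 and 96.6 CPM), against 4.97 and 3.64 CPM, and was not called by DESeq2 (adjusted p = 0.733). The other 10 genes kept their call in every alternative in which they were tested, though with thinned cells that was only Fabp7 and Pou3f2.

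**Figure D1:**
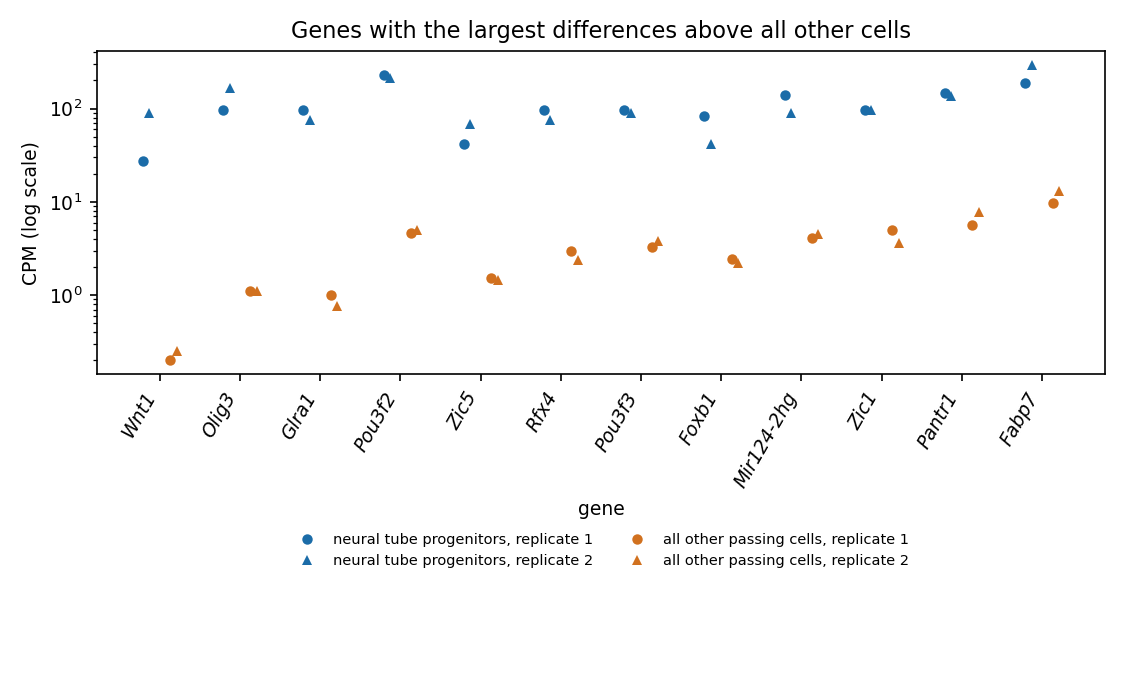
Levels of the 12 named higher genes, in CPM on a log axis, in neural tube progenitors (blue, left of each pair) and in all other passing cells outside the gated classes (orange), with 1 circle for replicate 1 and 1 triangle for replicate 2. For each gene both progenitor points lie above both points of the other cells.

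Of a list of 37 neural progenitor genes, 27 were tested, 16 were higher and 2 lower, with a median log2 fold change of 1.73, beside -0.03 over all genes tested. Zic5, Rfx4, Pou3f3 and Foxb1 stood at a few CPM in the other cells, and progenitors could carry such genes past the filter on low counts. The count and median are thus a description. Besides the genes above, the calls included Ckb, a brain creatine kinase gene (388 and 683 CPM, against 61.3 and 87.4 CPM), Sfrp2, a secreted Wnt modulator (83.1 and 373 CPM, against 31.6 and 48.5 CPM), and the RNA-binding protein gene Msi1 (152 and 200 CPM, against 41.1 and 58.8 CPM). Sfrp2 rested more on replicate 2, with 54 UMIs there and 12 in replicate 1. Sox9, a later gliogenic factor, was lower, with 4 and 5 UMIs in progenitors (27.7 and 34.5 CPM), against 70.4 and 80.4 CPM, as was Cd24a. Crabp2, a cellular retinoic acid binding protein gene, was also higher, at 2367 and 2953 CPM, against 380 and 527 CPM. Crabp1, its relative, stood at 2152 and 5575 CPM, against 688 and 1343 CPM. Crabp1 was called lower in progenitors than in neurons and in Sox10-lineage crest, while Crabp2 was called higher than in both. Of 9 retinoid genes tested against the other cells, 2 were higher and 3 lower, with a median log2 fold change of -1.16, or -0.74 with genes at 0 UMIs placed at their bound.

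Red cell, gut, liver and several mesodermal genes were lower in progenitors than in the other cells. All 8 tested erythroid genes were lower, as were all 5 of foregut endoderm, all 4 of hepatoblasts, 6 of 10 of mesenchyme and 5 of 12 of cardiomyocytes, and none of these genes was higher. None of 2 tested paraxial mesoderm genes was called. The 12 named genes with the largest differences below the other cells had no UMI in any progenitor. They included the red cell genes Alas2 and Slc4a1 and the mesenchymal factor Tcf21. Alas2, of haem synthesis, was at least 5.74-fold lower against the floor of 3 counts per library, and Tcf21 at least 2.94-fold lower. Summed erythroid markers came to 1121 and 1442 CPM in progenitors, with UMIs of 5 of 9 genes, against 44756 and 41785 CPM in the other cells. Their part in the results was not tested. None of 9 macrophage markers had a UMI, and foregut endoderm markers summed to 20.8 and 41.4 CPM, against 629 and 722 CPM. Cells with UMIs of Epcam or Foxa1 were left out of the progenitors by the rule but stayed among the other cells. Counts and levels of the foregut endoderm list, and of other lists of cells with these genes, are thus a description. The rule left out cells with UMIs of the crest gene Sox10 or of 3 neuronal genes, and gated crest and neurons are not among the other cells, so the levels of both marker lists are a description. Crest and glial markers summed to 90.0 and 41.4 CPM, against 166 and 131 CPM, 6 of 11 had a UMI, and none of 4 tested was called. Neuron markers summed to 228 and 290 CPM, against 293 in each library of the other cells, and of 13 tested Stmn3 was higher and Gap43 lower. The growth genes H19 and Igf2, named here after their values were seen, were low. H19 had 24 and 28 UMIs in progenitors (166 and 193 CPM), against 3214 and 2997 CPM in the other cells, and Igf2 had 15 and 20 UMIs (104 and 138 CPM), against 1107 and 1106 CPM.

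Along the back-to-belly axis, the patterning genes called above the other cells were dorsal or intermediate. Of 16 dorsal patterning genes 6 were tested, and 4 were higher than in the other cells, with a median log2 fold change of 2.35. Wnt1 and Olig3 passed the filter on low counts through their level in progenitors. This count and median are thus a description. Pax3 (23 UMIs in each library, 159 CPM in both) stood against 26.3 and 8.05 CPM, and Msx1 (145 and 159 CPM) against 42.9 and 61.6 CPM. The Wnt gene Wnt3a had 1 and 9 UMIs. Of 2 tested intermediate genes, Irx3 was higher, with 30 and 17 UMIs (208 and 117 CPM), against 45.9 and 45.7 CPM, and it was seen in 25 cells. Of 5 tested ventral genes none was higher and Shh was lower, though 3 had positive log2 fold changes and the median was 1.17. Shh also stands in the foregut endoderm list, and cells with Foxa1 UMIs were left out of the progenitors but not of the other cells. The Shh call thus gives no position along this axis. The motor and interneuron domain gene Nkx6-1 had 6 and 5 UMIs (41.5 and 34.5 CPM), against 17.0 and 14.7 CPM (log2 fold change 1.17 ± 0.56, adjusted p = 0.259, edgeR). The lack of a higher ventral call depended on the class compared. Nkx6-1 was called higher in progenitors than in Sox10-lineage crest, and lower than in neurons and SHF progenitors. Slit1, also in the ventral list, was called higher than in SHF progenitors. Olig2, of motor neuron progenitors, had 1 UMI, and Nkx2-2, Foxa2 and Shh had none. A count of 0 among 65 cells bounds cells with a UMI and not cells that express a gene.

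**Figure D2:**
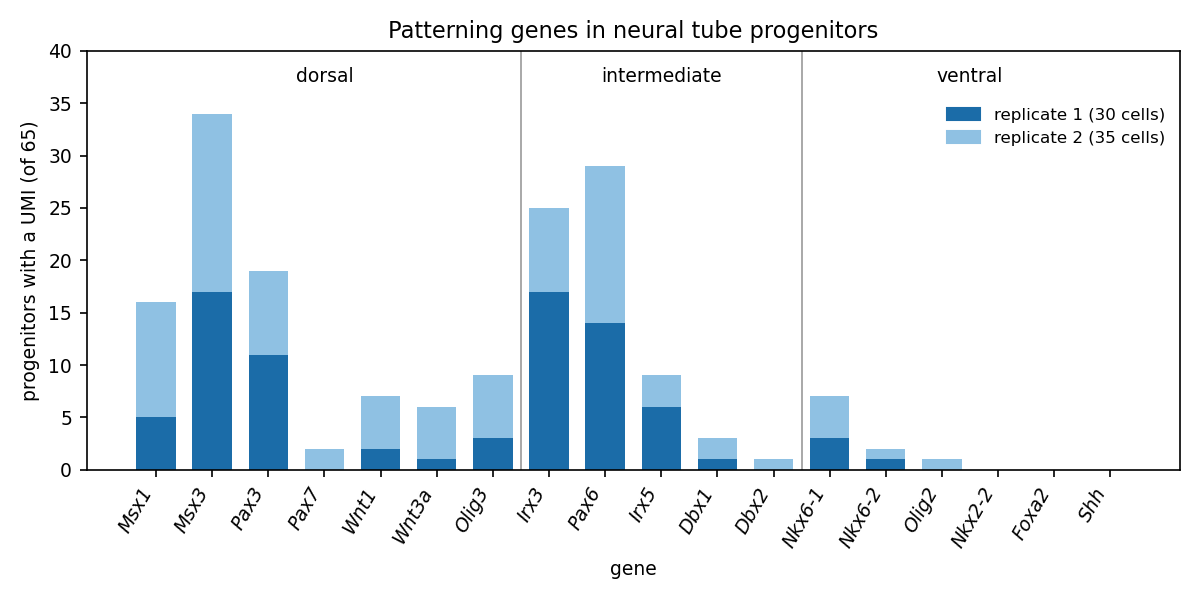
Number of the 65 progenitors with at least 1 UMI of each patterning gene (bars start at 0, dark part replicate 1, light part replicate 2), in dorsal, intermediate and ventral groups. Msx3 and Pax6 belong to the marker rule. Irx3 reaches 25 cells, Nkx6-1 reaches 7, and Nkx2-2, Foxa2 and Shh have none.

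Of the 9 Olig3 cells, 8 also held Msx1 UMIs, 5 Wnt1, 4 Wnt3a and 1 Irx3. None of the 7 Wnt1 cells held a UMI of Irx3. None of the 7 Nkx6-1 cells held Msx3, Pax3 or Msx1, while 4 of them held Pax6. These counts depend on depth and on the rule and were not tested. By UMIs of Nkx6-1, Nkx6-2, Olig2, Nkx2-2 or Nkx2-9 without Pax3, Pax7, Msx1 or Msx3, 8 members were ventral (4 in each library). The converse gave 40 dorsal members (19 and 21), 1 held both kinds and 16 held neither. Msx3, seen in 34 of the 65 members, is both an inclusion gene and a dorsal gate gene, and no ventral gate gene is an inclusion gene. The rule thus tilts this split to the dorsal side, and it gives no proportion of dorsal to ventral cells. A split without Msx3 was not made.

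Ventral and dorsal members were compared on genes outside these gates. Of 651 genes tested, none was higher and 2 were lower in ventral members (0.307%), by edgeR, with 27 (4.15%) at an unadjusted p under 0.05. DESeq2 called 1. Ptn, which encodes the secreted growth factor pleiotrophin (chromosome 6, 36714929 to 36810220, minus strand), had 2 and 0 UMIs in ventral members, against 199 and 158 UMIs in dorsal members. It was seen in 2 of 8 ventral and 37 of 40 dorsal cells. Counted together, its level was lower in ventral members by a ratio of 26.4 (exact 95% counting interval 7.25 to 219; adjusted p = 2.44e-12, edgeR). The call was lost with cells thinned to 1000 UMIs (adjusted p = 0.962), and it rests on 8 ventral cells with 15679 and 14302 UMIs. Ptn passed the filter on low counts by its level outside ventral members. Of the 34 cells with the dorsal gate gene Msx3, 32 held Ptn UMIs. Id3, an inhibitor of basic helix-loop-helix factors induced by BMP, had 9 and 17 UMIs in ventral members (574 and 1189 CPM), against 171 and 223 UMIs (1537 and 2431 CPM) in dorsal members. Its call (log2 fold change -1.27 ± 0.32, adjusted p = 0.0316, edgeR) was lost in 6 of the alternatives, among them merged barcodes and no library block.

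Most members held Hox UMIs, of low paralogue groups. None of 12 forebrain and midbrain genes had a UMI in any progenitor. Sox10-lineage crest had none either, and the list summed to only 16.4 and 16.0 CPM in the other cells. A list of 12 hindbrain and spinal genes summed to 62.3 and 193 CPM in progenitors, against 115 and 86.7 CPM in the other cells. Of 2 of these genes tested, none was called. Of 39 Hox genes, 16 had UMIs, and 53 of 65 cells held at least 1 Hox UMI. Paralogue groups 2 and 4 gave 88 and 81 of the 241 Hox UMIs, groups 6 and 8 gave 2 each, and group 7 and groups 9 to 13 gave none. Summed Hox levels were 983 and 683 CPM in progenitors, 1592 and 802 CPM in neurons, 931 and 439 CPM in crest and 558 and 442 CPM in the other cells. Hox UMIs were thus not particular to progenitors. Of 13 tested against the other cells, Hoxa2, Hoxb2, Hoxb3, Hoxd3 and Hoxd4 were higher and Hoxa5 was lower. Against neurons none was higher, and Hoxb4 and Hoxa5 were lower. Against crest Hoxb1 and Hoxa2 were higher and none was lower. Hoxa2 had 21 and 9 UMIs (145 and 62.1 CPM), against 200 and 354 UMIs in the far larger group of other cells, a log2 fold change of 1.96 ± 0.40. Hoxa5 had 2 and 0 UMIs in progenitors, against 538 and 320 UMIs in other cells (54.6 and 27.1 CPM), a ratio of 5.73 lower in progenitors (1.58 to 47.4).

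The 2 libraries differed in Hox level. Hoxd4 (chromosome 2, 74711929 to 74729160, plus strand) had 36 UMIs in replicate 1 and 6 in replicate 2 (249 and 41.4 CPM), against 31.2 and 13.5 CPM in other cells, and Hoxb2 had 16 and 42 UMIs. Group 4 as a whole gave 66 UMIs in replicate 1 and 15 in replicate 2, while group 2 gave 37 and 51. Hoxd4 was also higher in replicate 1 in neurons, with 28 and 0 UMIs, and in Sox10-lineage crest, with 50 and 8 UMIs. The highest group seen in a cell was 4 in 13 of 30 cells and 5 in 5 cells of replicate 1. In replicate 2 it was 4 in 9 of 35 cells, 3 in another 9 and 5 in 3. Wnt1, Wnt3a and Atoh1, a proneural gene of the most dorsal hindbrain and spinal cord (0 and 6 UMIs), came mostly from replicate 2. These library differences have no replicate and were not tested.

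**Figure D3:**
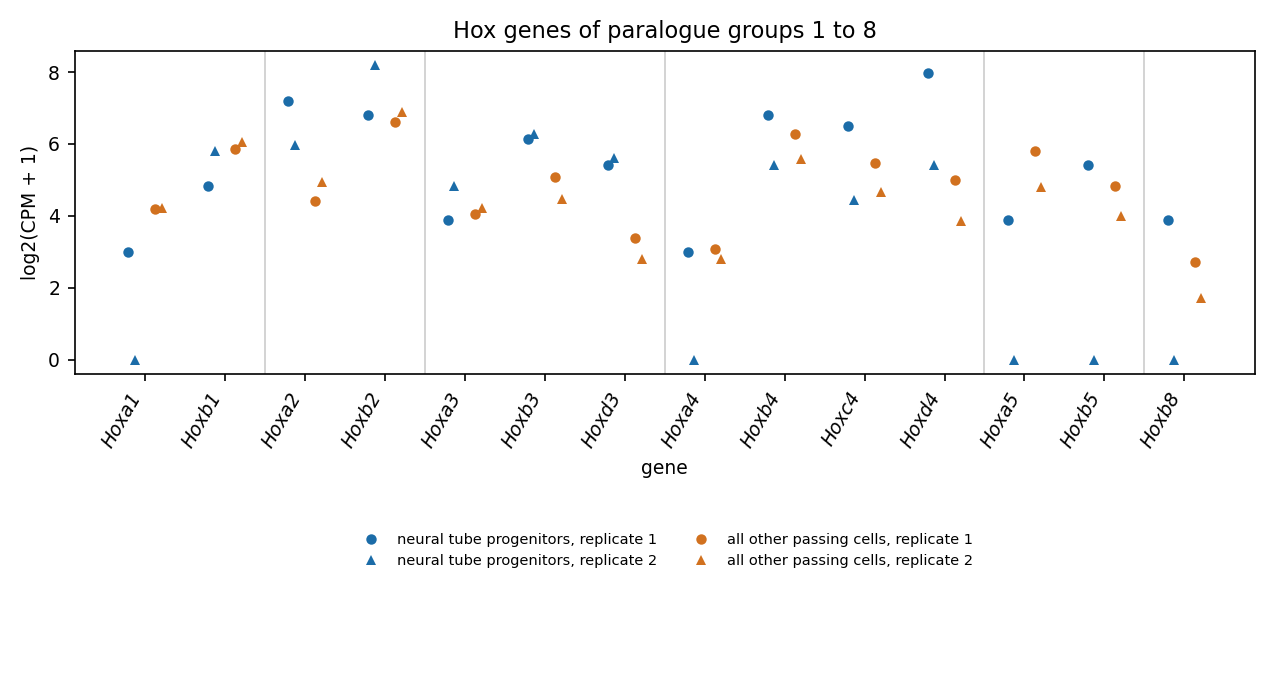
Level of Hox genes by paralogue group, as log2(CPM + 1), in neural tube progenitors (blue, left) and all other passing cells (orange), with circles for replicate 1 and triangles for replicate 2. Hoxd4 lies far higher in replicate 1 than in replicate 2 of the progenitors, and Hoxa5 and Hoxb5 are at 0 in replicate 2.

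Notch pathway genes are given without Hes5, which was in the rule. Of 17 tested genes of the pathway, 4 were higher and 1 lower than in the other cells, with a median log2 fold change of 0.51. Of these 5 calls, Id3 and Id2 are also known as BMP targets and stand in the BMP list too. Against neurons, gated as given below, 1 of the 17 was higher (Id3) and 1 lower (Dll3), with a median of -0.26. The ligand gene Dll1 had 4 and 12 UMIs in 7 cells (27.7 and 82.8 CPM), against 7.51 and 6.01 CPM. Lfng, a glycosyltransferase that modifies Notch receptors (chromosome 5, 140607320 to 140615545, plus strand), had 7 and 26 UMIs in 16 cells (48.4 and 179 CPM), against 4.87 and 10.6 CPM, a log2 fold change of 3.75 ± 0.48. Nrarp, a feedback inhibitor, had 3 and 8 UMIs (20.8 and 55.2 CPM), against 3.96 and 5.59 CPM. Id3 had 193 and 258 UMIs (1336 and 1780 CPM), against 608 and 825 CPM, a log2 fold change of 1.04 ± 0.12, and Id2 was lower, at 353 and 476 CPM, against 616 and 629 CPM. Hes1, another effector, had 8 and 12 UMIs in progenitors, against 936 and 1159 UMIs in other cells (log2 fold change -0.57 ± 0.37, adjusted p = 0.458, edgeR).

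The promoters of Hes5, Lfng and Nrarp are shown because these are a target, a modifier and a feedback inhibitor of Notch. Each is the 250 bases before the RefSeq start on GRCm38.p6, plus strand, and capitals mark matches to any of 3 motifs searched on both strands, the RBPJ word GTGGGAA, the octamer ATGCAAAT of POU factors and the SOX word AACAAT.
Hes5 (chr4:154960673-154960922): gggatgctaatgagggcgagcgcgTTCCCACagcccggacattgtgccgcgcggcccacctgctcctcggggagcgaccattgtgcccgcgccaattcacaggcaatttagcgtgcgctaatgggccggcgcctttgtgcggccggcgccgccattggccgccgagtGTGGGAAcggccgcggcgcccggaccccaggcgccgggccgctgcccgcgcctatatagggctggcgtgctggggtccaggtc
Lfng (chr5:140607091-140607340): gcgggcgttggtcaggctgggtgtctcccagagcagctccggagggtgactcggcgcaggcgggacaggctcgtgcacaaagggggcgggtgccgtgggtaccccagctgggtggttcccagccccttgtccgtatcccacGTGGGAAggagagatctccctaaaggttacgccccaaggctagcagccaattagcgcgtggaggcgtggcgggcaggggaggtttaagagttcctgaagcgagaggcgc
Nrarp (chr2:25180508-25180757): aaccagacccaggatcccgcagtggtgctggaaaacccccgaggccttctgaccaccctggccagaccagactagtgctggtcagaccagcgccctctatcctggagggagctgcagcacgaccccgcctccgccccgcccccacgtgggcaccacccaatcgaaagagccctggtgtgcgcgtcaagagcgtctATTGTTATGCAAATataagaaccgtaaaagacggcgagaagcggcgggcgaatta
Hes5 held 2 RBPJ words, starting 226 and 83 bases before the start (offsets -226 and -83), and Lfng held 1 (offset -109), counting from a RefSeq start that lies after the GENCODE start given above. In Nrarp a SOX word (offset -55) ended on the base before the octamer (offset -49), without overlap. The 3 motifs were searched in 3 sets of genes, and the Notch set was chosen after its values were seen. Of its 6 genes 5 matched the promoter table, and the RBPJ word was found in 2, the octamer in 2 (Dll1 and Nrarp) and the SOX word in 1. Of the 12 named higher genes 8 matched, and none of the 3 motifs was found in any of them. Of the 12 named lower genes 8 matched, with the RBPJ word in 3 (Anxa2, Cgnl1 and Wfdc2) and the other motifs in none. Of 27025 genes with any window, 6.18% held the RBPJ word, 1.81% the octamer and 10.9% the SOX word. A match is a string of letters, not a site.

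Neurons, the cells that progenitors give rise to, were gated by UMIs of at least 2 of the 3 genes Elavl3, Elavl4 and Stmn2, without Epcam, Foxa1 and Sox10, which gave 32 and 26 cells. Relative to these neurons, most tested differentiation genes were lower in progenitors and many of DNA replication were higher. Of 7965 genes, 88 were higher (1.1%) and 158 lower (1.98%) in progenitors, 3.09% in all, and 1208 (15.2%) had an unadjusted p under 0.05. Without the library block the counts were 12 and 56, and with cells thinned to 1000 UMIs 12 and 26. The neuron gate does not separate origins. Tlx2, of enteric and other peripheral neurons, had none in progenitors, against 9 and 21 in neurons, and was not called by DESeq2 (adjusted p = 0.581).

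Proneural and early neuronal genes were lower for 16 of 19 tested, of 26 in the list, with a median log2 fold change of -4.71, or -4.60 with genes at 0 UMIs placed at their bound, beside 0.02 over all genes. Neurod1 had no UMI in progenitors, against 70 and 74 UMIs in neurons (663 and 973 CPM), at least 39.5-fold lower. It was not called by DESeq2 (adjusted p = 0.407). Gadd45g, a gene of cell cycle exit, had 1 and 3 UMIs in progenitors, against 122 and 29 in neurons, and the neuronal tubulin gene Tubb3 8 and 10 UMIs (55.4 and 69.0 CPM), against 173 and 189 UMIs (1640 and 2486 CPM). Neurog2 had 0 and 6 UMIs in progenitors, against 15 and 1 (adjusted p = 0.296, edgeR). Of 13 tested neuron markers, 11 were lower, with a median of -5.04, or -3.06 at the bounds. Progenitors had to hold 0 UMIs of Elavl3, Elavl4 and Stmn2, and neurons UMIs of at least 2 of these genes. Lower levels of genes that go with them can follow from the gates, so the proneural and neuron counts are a description. Tubb3 and Dcx stand in both lists.

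Of 22 S phase genes tested, 10 were higher in progenitors than in neurons and none lower, with a median log2 fold change of 1.29. Their summed level was 6533 and 6396 CPM in progenitors, against 2701 and 2697 CPM in neurons. Rrm2, a ribonucleotide reductase subunit gene, stood at 789 and 704 CPM, against 227 and 250 CPM, and the replication clamp gene Pcna at 353 and 586 CPM, against 133 and 65.8 CPM. Of a list of 28 genes of G2 and M phase that also holds the D-type cyclins of G1, Top2a, Mki67 and the cyclin gene Ccnd2 were higher. Against the remaining cells, 7 of the 22 S phase genes were higher and none lower. Id3 (1336 and 1780 CPM, against 208 and 329 CPM) and Ptn (207 and 189 UMIs, 1433 and 1304 CPM, against 104 and 145 CPM) were also higher in progenitors than in neurons, with log2 fold changes of 2.55 ± 0.21 and 3.51 ± 0.30. Of 27 tested neural progenitor genes, 4 were higher than in neurons (Fabp7, Nes, Zic1 and Ptn), with a median log2 fold change of 0.53. Another 4 were lower (Sox11, Sox4, Cd24a and Nr6a1). The whole list summed to 6540 and 7210 CPM in progenitors, against 7184 and 5406 CPM in neurons.

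The 6 genes named as most above neurons were Zic1, Slfn9, Dscc1, Hist1h3c, Ddx20 and Olig3. All but Olig3 had no UMI in neurons, and their bounds ran from at least 1.53-fold to at least 2.85-fold. Olig3 had 1 UMI in neurons, a ratio of 23.8 (4.03 to 966). With neighbouring barcodes merged, 5 of the 6 were no longer called, with adjusted p-values (edgeR) from 0.107 for Dscc1 to 0.173 for Olig3. Ddx20 kept its call there. None of the 6 was called without the library block, with adjusted p-values (edgeR) from 0.0727 for Olig3 to 0.218 for Slfn9, or with inclusion genes at 0 in the other classes, from 0.0583 for Zic1 to 0.113 for Hist1h3c. DESeq2 gave no adjusted p for Zic1 and called none of the other 5, with adjusted p-values from 0.0675 for Dscc1 to 0.111 for Slfn9.

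**Figure D4:**
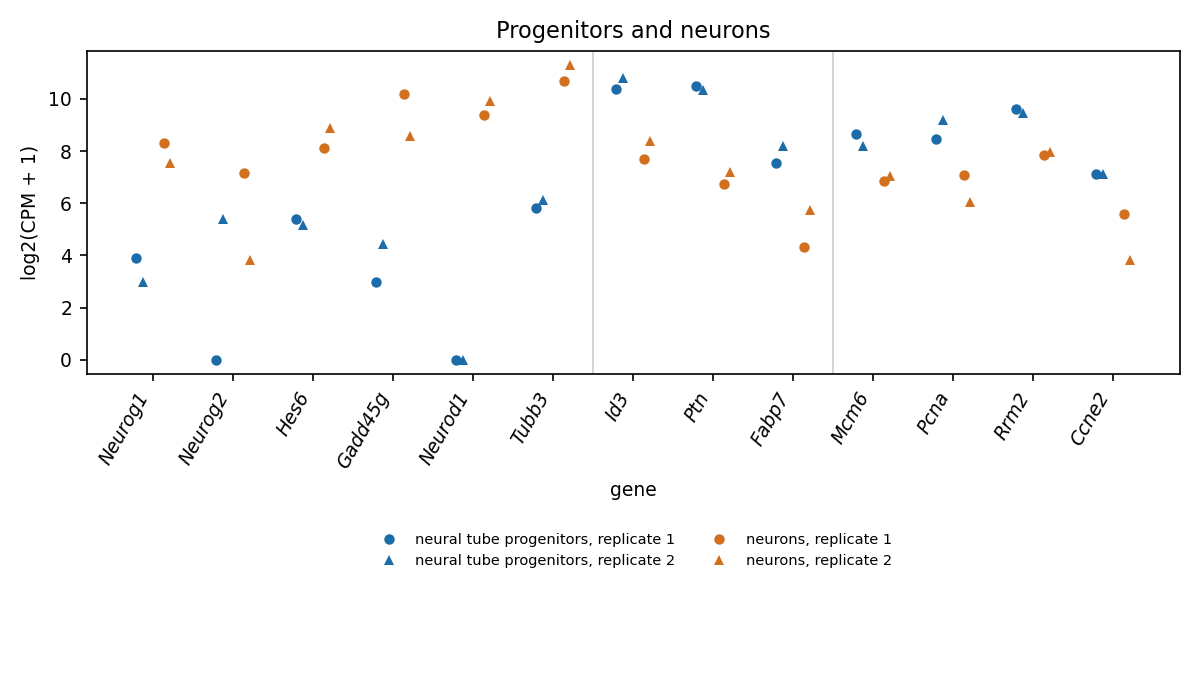
Levels as log2(CPM + 1) in neural tube progenitors (blue, left) and neurons (orange), with circles for replicate 1 and triangles for replicate 2. Panels from left to right hold proneural and neuronal genes, progenitor genes and S phase genes. Neurod1 is at 0 in both progenitor libraries, and Rrm2 and Pcna lie higher in progenitors.

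Of the 4 members with a UMI of Neurog2, 3 held Pax6 and none held Msx3. All 3 members with a UMI of Atoh1 held Msx1 and Wnt3a. Those counts were not tested.

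Sox10-lineage crest leaves the dorsal neural tube, and 40 and 29 such cells were gated by Sox10 with at least 1 further gene of that lineage, such as Foxd3, Erbb3 or Tfap2b. Of 7965 genes, 118 were higher (1.48%) and 123 lower (1.54%) in progenitors, 3.03% in all, and 1012 (12.7%) had an unadjusted p under 0.05. Without the library block the counts were 36 and 30, and with cells thinned to 1000 UMIs 6 and 6. Pantr1, Olig3, Mir124-2hg, Zic1, Pou3f3 and Glra1 had no UMI in crest and were at least 6.31-fold (Glra1) to 10.3-fold (Pantr1) higher in progenitors, though Zic1 was not called by DESeq2 (adjusted p = 0.644). The genes most below crest included Dlx1, a homeobox gene (0 UMIs in progenitors, against 21 and 11), and the transcription inhibitor gene Mdfi (0, against 20 and 16), at least 3.28-fold and 3.87-fold lower. Dlx1 was not called without the library block (adjusted p = 0.0616, edgeR). Of 27 tested neural progenitor genes, 15 were higher and 2 lower, with a median log2 fold change of 1.41. Col1a2, a collagen gene of mesenchyme, had 2 and 0 UMIs in progenitors, against 139 and 41 in crest, a ratio of 56.6 lower in progenitors (15.4 to 471).

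SHF progenitors, the mesodermal cells at the centre of the dissection, were the other progenitor class compared, in a series whose stated subject is Hedgehog networks of cardiac and neural progenitors. They were gated by at least 2 of the 3 genes Isl1, Osr1 and Tbx5, without the exclusion genes, Wt1, Upk3b, Ttn and Myh6 (166 and 130 cells). Of 7965 genes, 187 were higher (2.35%) and 250 lower (3.14%) in neural tube progenitors, 5.49% in all, and 1314 (16.5%) had an unadjusted p under 0.05. With DESeq2 the counts were 168 and 122, without the library block 77 and 93, and with cells thinned to 1000 UMIs 23 and 35. Pou3f2, Pax3, Mir124-2hg, Zic1, Glra1 and Rfx4 had no UMI in SHF progenitors, which made them at least 19.3-fold (Glra1 and Rfx4) to 49.5-fold (Pou3f2) higher. Zic1 was not called by DESeq2 (adjusted p = 0.417). Cxcl13, a chemokine gene, Aldh1a2, of retinoic acid synthesis, Tcf21, Tagln and Wnt2 had no UMI in neural tube progenitors. Aldh1a2 had 135 and 102 UMIs in SHF progenitors (160 and 183 CPM) and was at least 8.28-fold lower in neural tube progenitors. Tagln had 11 and 170 UMIs in SHF progenitors, mostly in replicate 2, and its call was lost without the library block (adjusted p = 0.153) and with thinned cells (adjusted p = 0.26).

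Hedgehog targets were lower in neural tube progenitors for 3 of 4 tested, and none was higher, with a median log2 fold change of -3.26, beside -0.03 over all genes. The list holds 7 genes, and only those that passed the filter on low counts were tested. Hhip, Foxf1 and Gli1 lay under it in neural tube progenitors and passed through other classes. The count and median are thus a description. Against neurons, crest and the remaining cells none of the same 4 was called, with medians of -0.38, -0.13 and -1.20. The target list summed to 69.2 and 27.6 CPM in neural tube progenitors, against 368 and 345 CPM in SHF progenitors, 85.3 and 26.3 CPM in neurons, 49.9 and 27.8 CPM in crest and 102 and 94.7 CPM in the remaining cells. SHF progenitors were thus the high class, and the comparisons share the progenitor sums. The receptor and target gene Ptch1 (chromosome 13, 63508328 to 63573598, minus strand) had 7 and 3 UMIs in neural tube progenitors (48.4 and 20.7 CPM), against 99 and 54 UMIs in SHF progenitors (117 and 96.9 CPM), a log2 fold change of -1.64 ± 0.44. The Hedgehog inhibitor gene Hhip had 1 and 0 UMIs in neural tube progenitors, against 53 and 20 in SHF progenitors, a ratio of 15.1 lower (2.62 to 604). Foxf1, a mesodermal forkhead target, had 0 and 1 UMIs, against 86 and 58, a ratio of 29.8 lower (5.26 to 1184). Gli1, the effector gene, had 2 and 0 UMIs, against 34 and 28, and did not pass (adjusted p = 0.0739, edgeR). Of 11 transduction genes, 2 were higher. Gas1, a membrane co-receptor for Hedgehog ligands (chromosome 13, 60174405 to 60177365, minus strand), had 24 and 23 UMIs (166 and 159 CPM), against 48.6 and 35.9 CPM in SHF progenitors. Scube2, which helps to release the ligand, had 7 and 5 UMIs, against 2 and 0, a ratio of 29.0 higher (6.46 to 267). The co-receptor genes Boc (34.6 and 27.6 CPM, against 4.74 and 5.38 CPM) and Cdon (13.8 and 55.2 CPM, against 5.93 and 3.59 CPM) had few UMIs, and Boc was not called (adjusted p = 0.0964, edgeR) and Cdon did not pass the filter on low counts. Gas1 UMIs lay in 20 of 40 dorsal and 1 of 8 ventral members.

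Of 12 heterochronic genes, which time developmental programmes, 2 were lower and none higher. Hmga2, a chromatin protein gene (chromosome 10, 120361275 to 120476469, minus strand), had 57 and 41 UMIs in neural tube progenitors (394 and 283 CPM), against 702 and 662 CPM in SHF progenitors, a log2 fold change of -1.02 ± 0.19. Nfib, a transcription factor gene of later neural and lung development, had 0 UMIs, against 32 and 14, at least 1.52-fold lower. Lin28a stood at 62.3 and 124 CPM, against 75.9 and 118 CPM, Lin28b at 152 and 55.2 CPM, against 117 and 84.4 CPM, and Mycn at 187 and 89.7 CPM, against 155 and 165 CPM. The groups overlapped for Lin28a, Lin28b and Mycn, with adjusted p-values of 0.946, 0.997 and 0.764 (edgeR), which do not show that levels were alike.

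**Figure D5:**
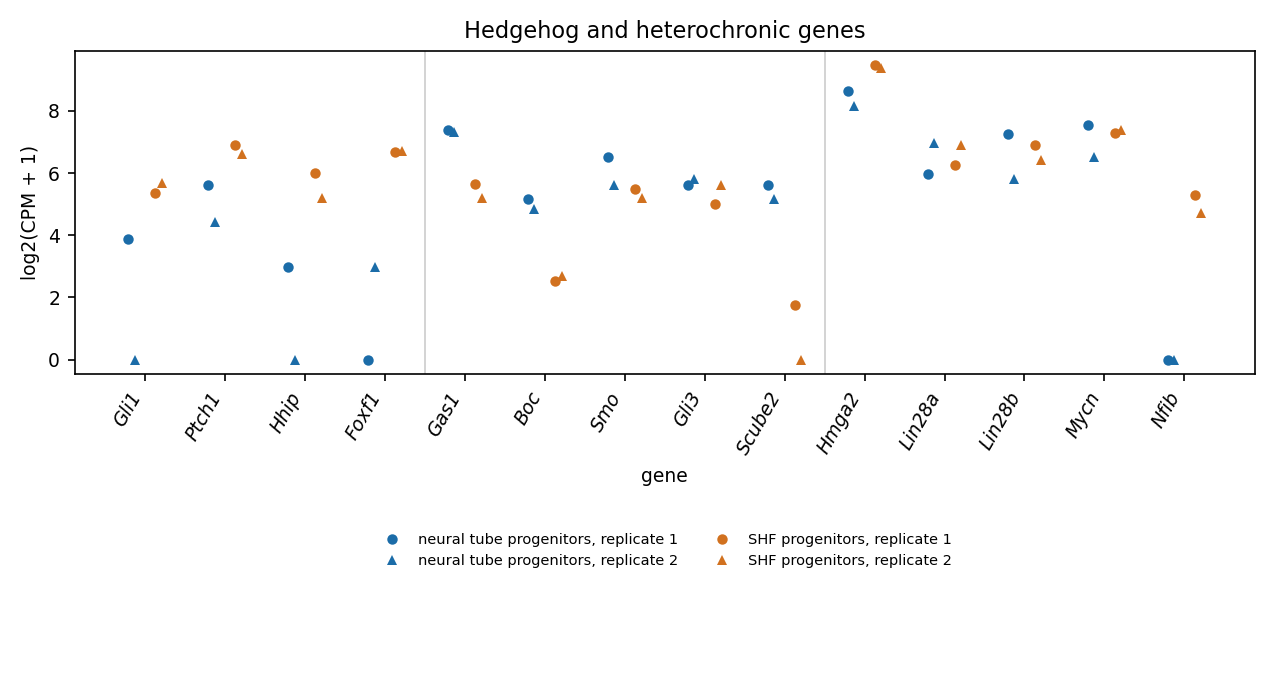
Levels as log2(CPM + 1) of Hedgehog targets (left panel), transduction genes (middle panel) and heterochronic genes (right panel) in neural tube progenitors (blue, left) and SHF progenitors (orange), with circles for replicate 1 and triangles for replicate 2. Ptch1, Hhip and Foxf1 lie lower in neural tube progenitors, Gas1 lies higher, and Lin28a, Lin28b and Mycn overlap.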

How the data were processed

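Single-cell mRNA was counted by Drop-seq in 2 libraries of 1 group, about 80 pooled embryos each. The authors deposited whole-number UMI counts per gene and barcode. The submitters' processing notes name mm10 and Scanpy; the aligner is not given in the sources used here. Of 52550 identifiers, 99.7% were found in GENCODE M21 ignoring versions (93.3% exactly). The authors' release may differ.

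Cells needed 400 detected genes and no more than 10% mitochondrial UMIs. Scrublet (expected rate 6%) marked 0 and 1 cells, too few for it to have worked, so doublets were kept, and removing the highest 5% of scores (156 and 217 cells, 1 of them a member) was an alternative. UMIs were summed per library for 6 disjoint classes (progenitors, neurons, Sox10-lineage crest, SHF progenitors, cardiomyocytes, the rest), 12 sums. SHF progenitors and cardiomyocytes were required not to meet the progenitor rule. The sums were tested with edgeR 4.0.16 (R 4.3.3) by the two-sided quasi-likelihood F test with TMM scaling, filterByExpr, class and library in the model, 5 residual degrees of freedom, and p-values adjusted by Benjamini-Hochberg over all genes tested. The model within members had 6 sums and 2 residual degrees of freedom (ventral, dorsal, other). In each fit the filter kept a gene by its level in any class or subclass. Counts and medians over gene lists thus depend on which members passed, and are a description. Gating genes and transcripts overlapping them were left out. The p-values describe cell classes between 2 libraries, not groups of animals. DESeq2 1.42.0 was an alternative. Scripts were tested on simulated counts. Results on some genes are not reported here.

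Members, gene lists and the naming rule were chosen with earlier results of these data known. Named genes were the 12 largest changes each way against the rest (6 elsewhere) with adjusted p under 0.05, agreeing in direction between libraries and averaging 50 CPM or more where higher (20 within members), without unnamed models, mitochondrial and haemoglobin genes. List members are given by role.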

Additional observations from a re-analysis of the deposited data

How the results depend on the processing

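Against the remaining cells, the 553 calls became 219 with no replicate block, 357 with DESeq2 and 68 with cells thinned to 1000 UMIs. The same 3 settings gave 68, 171 and 38 against neurons (246 calls), 66, 166 and 12 against Sox10-lineage crest (241 calls) and 170, 290 and 58 against SHF progenitors (437 calls). With thinned cells only 2130 genes were tested, against 7965, and 73 against 651 for ventral and dorsal members. Those counts are thus of fewer genes, and many genes were not tested again. The remaining alternatives (stricter gene or UMI minimum, doublet scores, barcodes in both libraries, at least 3 inclusion genes, inclusion genes at 0 in other classes, barcodes 1 base apart merged, DESeq2 size factors, no filter on low counts) kept these counts within 1.5 times, as did fitting progenitors and other cells alone, run for that comparison only. Among ventral and dorsal members the 2 calls became 1 with at least 800 genes, with at least 1000 UMIs, with merged barcodes, with DESeq2 size factors, with no replicate block and with DESeq2, and 0 with thinned cells. The mean share of 0.726% became 1.07% with at least 800 genes, 1.01% with at least 1000 UMIs, 0.313% with at least 3 inclusion genes and 0.860% with merged barcodes, an alternative added after the data were seen. No named gene reversed its direction. Leaving out 1 replicate leaves no residual degrees of freedom, so those settings give values and no count of calls. Those values were log2 ratios of scaled counts with a small count added, a measure unlike the fitted log2 fold changes. Differences of 1 or more from the fitted values are given first without replicate 1, then without replicate 2. They held for 1 and 4 of 24 named genes against the remaining cells and 12 and 11 of 12 against neurons. Against crest and against SHF progenitors they held for all 12. The added count weighs most on genes with 0 UMIs in a class, so these differences do not show that a result rests on 1 library. Splits moved by more than 10 points also without a filter on low counts against SHF progenitors (141 higher, 318 lower) and, against neurons, with inclusion genes at 0 in the other classes (148 higher, 164 lower). The causes were not tested. Ventral members rest on 4 cells per library, and depth limits any gene under about 20.8 CPM.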
